A study of Mus musculus with 2 samples.

Results

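The cells described here came from tumors and were chosen by their own transcripts. A cell was taken when its summed unique molecular identifiers (UMIs, each 1 counted transcript) of Itgae, Plet1, Flt3 and Clec9a reached 3, and when it held at most 2 UMIs of C1qa, C1qb and C1qc, 0 of Cd3e, Cd3d and Cd3g, at most 1 of Ccr7 and at most 1 of Krt8 and Krt18. These gates held 269 of the 25402 cells kept over both libraries, 165 of 13542 cells from the Lmo7+/+ tumor and 104 of 11860 from the library labelled Lmo7-/-. The working name of the population was type 1-like dendritic cells, and the data bore it out only in part: 81 of the 269 cells held a transcript of Xcr1 or Clec9a and 188 held neither. Of the 269 cells 32 carried RNA of tumor or plasmacytoid dendritic cell type and were set apart, which left 73 cells with and 164 without such a transcript, and these subsets are meant below unless all gated cells are named.

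MC38 cells, a mouse colon carcinoma line, were grown under the skin of Lmo7+/+ or Lmo7-/- C57BL/6 mice, and sorted live cells of the dissociated tumors were profiled by 10x droplet RNA sequencing. Lmo7 encodes a LIM-domain protein that has been linked to the cytoskeleton and to protein ubiquitination, and the deletion was present in the whole animal, so that every host cell type, but not the injected MC38 cells, carried it. There was 1 library for each genotype, and the number of mice behind each was not given in the sources used here. A difference between the libraries was therefore a difference between 2 samples, without a test, and the intervals printed cover counting error only. Kept cells had medians of 4535.5 and 4304.5 UMIs in the Lmo7+/+ library and the library labelled Lmo7-/-. The libraries shared 279 droplet barcodes of the 31371 deposited droplets, and no gated cell of one library carried the barcode of a gated cell of the other. Lmo7 itself (chr14, 101729957 to 101934710, GRCm38) had 6 and 1 counts in the gated cells, too few to check the genotype labels.

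Dendritic cells take up proteins in tissues and show peptides of them to T cells. Conventional type 1 dendritic cells depend on the transcription factors Irf8 and Batf3, carry the chemokine receptor Xcr1 and the dead-cell receptor Clec9a, and are known for presenting the antigens of dying cells on MHC class I to CD8 T cells. Type 2 dendritic cells carry Sirpa and Itgam and present mainly to CD4 T cells, and either type can mature, gain Ccr7 and leave for the lymph node. Itgae, the alpha chain of the CD103 integrin that binds E-cadherin, marks type 1 dendritic cells in many tissues and type 2 cells in the gut.

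The gated cells made up 1.22% of the kept cells of the Lmo7+/+ library (95% Clopper-Pearson interval 1.04 to 1.42) and 0.877% (0.717 to 1.06) of the library labelled Lmo7-/-. These shares lay -0.342 percentage points apart (Lmo7-/- minus Lmo7+/+, Newcombe interval -0.592 to -0.0897). Among gated leukocytes, the gated cells together with the Ccr7 cells, macrophages, monocytes and T cells, the shares were 3.38% of 4888 and 1.89% of 5502 cells. All gated cells with a Xcr1 or Clec9a transcript numbered 43 and 38, or 0.318% and 0.320% of kept cells (difference 0.00287 points, -0.137 to 0.147), so that their share was not distinguishable between the libraries at this depth. Those without numbered 122 and 66, or 0.901% and 0.556% (difference -0.344 points, -0.555 to -0.135). With the 32 cells set apart left out, the shares were 0.281% and 0.295% with such a transcript (difference 0.0145 points, -0.119 to 0.152) and 0.790% and 0.481% without (difference -0.310 points, -0.506 to -0.113). When only cells with any C1q transcript were left out of all gated cells, 104 and 82 cells remained. The difference was then -0.0766 points, with an interval that reached from -0.287 to 0.137. A share of sorted live cells cannot tell fewer dendritic cells from more cells of other kinds.

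**Figure D1:**
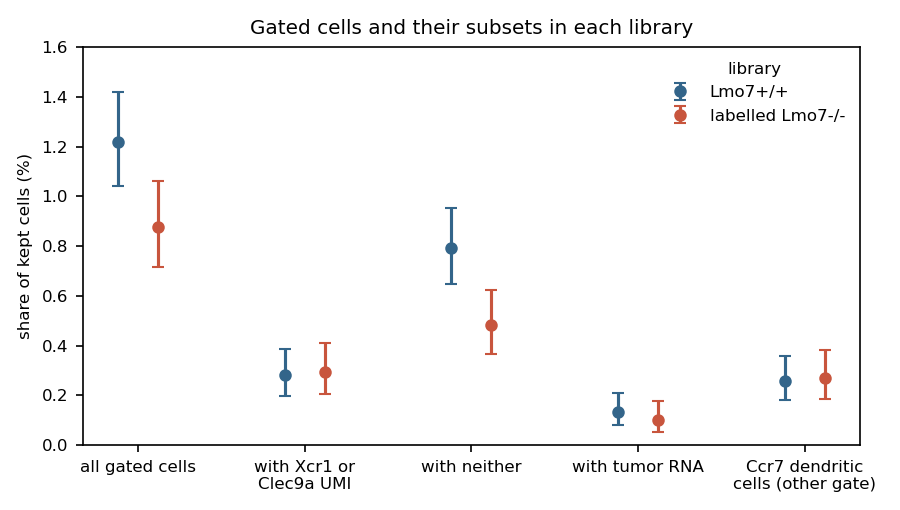
Share of kept cells (%, horizontal axis labels give the cell group) in the Lmo7+/+ library and the library labelled Lmo7-/-, with 95% counting intervals as bars. All gated cells stood at 1.22% and 0.877%, while those with a Xcr1 or Clec9a transcript and outside the 32 cells set apart stood at 0.281% and 0.295%.

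The gate rested mostly on Plet1, a glycolipid-anchored surface protein (ENSMUSG00000032068, chr9, 50494525 to 50505482). Plet1 gave 77.2% and 75.8% of the gate's UMIs in the Lmo7+/+ library and the library labelled Lmo7-/-, and 145 of 165 and 94 of 104 cells reached the threshold on Plet1 alone. Itgae (ENSMUSG00000005947, chr11, 73090583 to 73147446) gave 15.04% and 15.99%. Flt3, the receptor for the growth factor that sustains dendritic cells (ENSMUSG00000042817, chr5, 147330741 to 147400489), gave 4.60% and 3.82%. Clec9a (ENSMUSG00000046080, chr6, 129408862 to 129424763) gave 3.19% and 4.40%. Transcripts of all 4 genes were found together in 11 and 12 cells.

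Cells at the edge of the gate differed from those well inside it. At a sum of 2, just outside, were 37 and 25 cells with Irf8 at 76.7 and 182 CPM (summed counts scaled to a total of 1000000) and Sparc, a matrix protein gene of tumor and stromal cells, at 2219 and 1542 CPM. At a sum of 3, just inside, were 16 and 7 cells with Irf8 at 132 and 808 CPM and Sparc at 2399 and 808 CPM. At a sum of 6 or more were 128 and 84 cells, with Irf8 at 563 and 556 CPM and Sparc at 368 and 267 CPM. Sparc was thus higher at the edge of the gate than well inside it.

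To compare how often a gene was seen, every cell was thinned to 1500 UMIs, which left 160 and 102 gated cells. Plet1 was then found in 86.2% and 85.3% of gated cells, in 0.284% and 0.233% of C1q macrophages and in 1.61% and 1.30% of T cells. Itgae was found in 43.1% and 52.9% of gated cells and in 3.54% and 2.82% of T cells, some of which are known to carry CD103. These are gate genes, so that the shares describe the choice of cells and their background. Without thinning, Plet1 was found in 94.5% and 99.04% and Itgae in 67.3% and 76.0% of gated cells. Median depths were 4115 and 4115.5 UMIs in gated cells, 5319 and 4613 in macrophages and 2651 and 2606 in T cells.

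Xcr1, the receptor for the chemokine Xcl1 (ENSMUSG00000060509, chr9, 123852315 to 123862029), was not part of the gate. It was found in 15.6% and 17.6% of thinned gated cells (22.4% and 27.9% unthinned), against 2.17% and 6.89% of macrophages and 0.643% and 1.08% of T cells. Its summed level was 169.5 CPM in the Lmo7+/+ library and 253 CPM in the library labelled Lmo7-/-, a log2 ratio of 0.58 (0.24 to 0.92). In C1q macrophages it stood at 16.01 and 53.0 CPM, a log2 ratio of 1.73 (1.57 to 1.89), so that the higher Xcr1 level in the library labelled Lmo7-/- was also present outside the gated cells. Whether this background had a part in the level inside the gate was not tested.

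Genes with a level in gated cells at least 2-fold above macrophages, monocytes and Ccr7 cells in both libraries numbered 23 of 2408 (0.955%). This was a description, since the gate chose the cells. The smallest of a gene's log2 ratios over those groups and libraries was 3.43 for Sept3, a septin, 2.99 for Nccrp1, 2.82 for Wdfy4, which cross-presentation by type 1 dendritic cells requires, 2.77 for Ffar2, a receptor for short-chain fatty acids, and 2.23 for Xcr1. It was 1.88 for Ifitm1, 1.604 for Kit, the stem cell factor receptor, and 1.59 for Cdh1, the E-cadherin that Itgae binds. Not every dendritic cell gene set these cells apart. Irf8 stood at 543 and 511 CPM in gated cells, at 1305 and 1088 in Ccr7 cells, at 645 and 693 in T cells and at 234 and 261 in macrophages. Cadm1, an adhesion molecule of type 1 dendritic cells, was at 128 and 172 CPM, below the 352 and 446 CPM of macrophages.

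**Figure D2:**
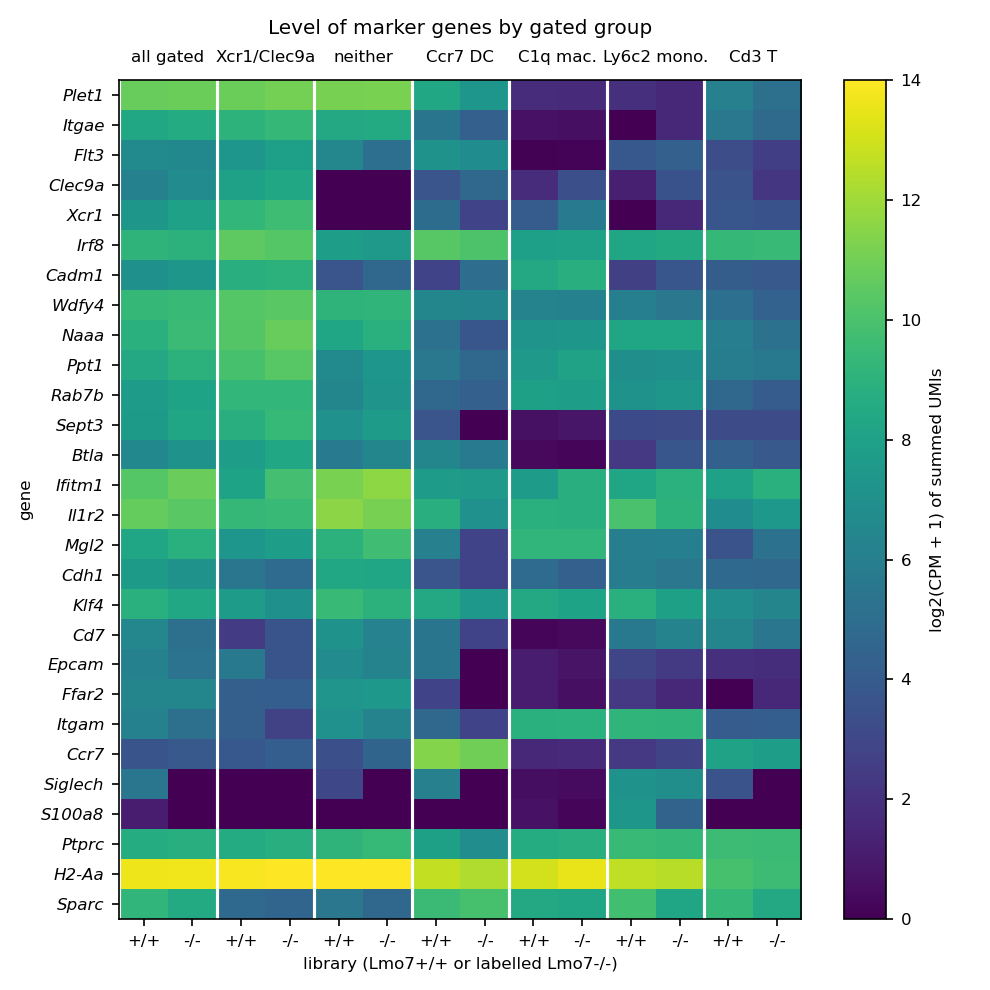
Heat map of log2(CPM + 1) for 28 genes (vertical axis) in gated cells, their subsets and the compared cell groups, with a column for each library. Xcr1, Wdfy4 and Cadm1 were high in gated cells with a Xcr1 or Clec9a transcript, and Il1r2 and Ifitm1 in those with neither.

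Markers of other cells were present to unequal degrees. Of 10 neutrophil markers 5 were at 0 in the Lmo7+/+ library and 7 in the library labelled Lmo7-/-. S100a9, Ly6g and G0s2 were at 0 in both, and the class summed to 106 and 124 CPM, nearly all of it Mmp9 with 86 and 66 counts. S100a8 and S100a9 were each found in 0 of 160 and 0 of 102 cells thinned to 1500 UMIs. At that depth 3 counts allow up to 1.88% and 2.94% of cells with a UMI, and the exact upper limits are 2.28% and 3.55%. T cell markers summed to 21.9 and 7.08 CPM, NK cell markers to 4.61 and 1.77 CPM and B cell markers to 0 and 1.77 CPM. Macrophage markers summed to 480 and 425 CPM, monocyte markers to 1046 and 883 CPM, markers of mature Ccr7 dendritic cells to 314 and 412 CPM and plasmacytoid dendritic cell markers to 499 and 380 CPM. The gate itself held the Cd3 genes at 0 and limited the C1q genes and Ccr7. The T cell, macrophage and Ccr7 cell sums were thus in part set by the choice of cells. The plasmacytoid gene Siglech had 39 and 0 counts, 17 of them in 1 cell. Fibroblast markers summed to 376 and 446 CPM and endothelial markers to 32.3 and 28.3 CPM. Cells with tumor RNA held 90.7% and 95.5% of Mmp9 counts. They also held 87.7% and 97.4% of the 163 and 117 counts of Fscn1, a Ccr7 cell marker. In cells with a Xcr1 or Clec9a transcript Ccr7 cell markers summed to 156 and 363 CPM and fibroblast markers to 53.4 and 51.0 CPM. In cells with neither these sums were 181 and 158 CPM and 53.2 and 42.8 CPM. The Ccr7 cell marker sums rest on few cells: over all gated cells of the library labelled Lmo7-/-, 25 of 37 counts of Ccl22 lay in 1 cell. Markers of mast cells and basophils, at 128 and 150 CPM, were almost wholly Kit, which gated cells themselves carried at 128 and 149 CPM.

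Part of the gated cells carried tumor or stromal RNA. With a cut of 5 UMIs over Sparc, Sox9, Col6a1, Col6a2, Col6a3, Serpinh1, Igfbp4 and Cald1, a list drawn up after the values were seen, 18 and 12 cells were set apart. They were 10.9% and 11.5% of gated cells and held medians of 10709 and 12135.5 UMIs. They accounted for 94.9% and 95.2% of Sparc counts, which the cut in part fixed, since Sparc is on its list. All 3 and 5 gated cells that Scrublet marked as doublets were among them. A further 2 and 0 cells held at least 5 UMIs of the plasmacytoid genes Siglech, Ccr9, Klk1 and Ly6d. The remaining cells were split by the presence of a Xcr1 or Clec9a UMI into 38 and 35 cells with and 107 and 57 with neither. The former were 23.03% (16.8 to 30.2) of all gated cells in the Lmo7+/+ library and 33.7% (24.7 to 43.6) in the other library, a gap of 10.6 points whose interval held 0 (-0.272 to 21.8). With the cells set apart counted too, 26.1% and 36.5% of gated cells held such a transcript, with a gap of 10.5 points (-0.747 to 21.8). The split reads single transcripts, and depth bears on it: the median was 5327 and 4686 UMIs with and 3348 and 3807 UMIs without.

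The subsets differed in many genes besides those that defined them. Of 3083 genes with enough counts, 86 (2.79%) were at least 2-fold higher and 162 (5.25%) at least 2-fold lower in cells with a Xcr1 or Clec9a transcript in both libraries, while 5 (0.162%) passed 2-fold in opposite directions. Of 16 type 1 dendritic cell markers counted, 12 were higher in both libraries and 0 lower. Xcr1 and Clec9a are among these 12 and were fixed by the split. The gate genes Itgae and Flt3 are among the 16 but not the 12, and the gate bore on their levels too. All 3 type 2 markers counted were lower. The subsets were set up after values were seen and share a library, so that these counts are descriptions.

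Among transcription factors Irf8 (ENSMUSG00000041515, chr8, 120736358 to 120756694) stood at 1499 CPM with and 230 CPM without a Xcr1 or Clec9a transcript in the Lmo7+/+ library, a log2 ratio of 2.71. In the library labelled Lmo7-/- it stood at 1275 and 193 CPM, a log2 ratio of 2.73. Batf3 followed with log2 ratios of 1.29 and 2.34, and Klf4, which type 2 dendritic cells need, went the other way with -1.78 and -1.97. The other 9 of the 12 transcription factors counted did not pass 2-fold in both libraries. Cadm1 (ENSMUSG00000032076, chr9, 47530173 to 47857637) was at 431.5 against 12.1 CPM (log2 ratio 5.16) and 510 against 25.7 CPM (4.31). Among further genes picked for their ratios, log2 levels were higher for Ppt1, a palmitoyl thioesterase, by 3.28 and 2.99, Psap, the saposin precursor, by 2.14 and 2.00, Naaa, a lipid amidase, by 2.04 and 1.87, and Rab7b, a small GTPase, by 2.89 and 2.06. Dnase1l3, a secreted nuclease, was higher by 2.16 and 2.46, Mpeg1, a pore-forming protein, by 3.01 and 2.54, and Btla, an inhibitory receptor, by 2.06 and 1.89.

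The cross-presentation list was mixed, with 3 of 12 genes higher and 2 lower in cells with a Xcr1 or Clec9a transcript. Of all genes 2.79% were higher and 5.25% lower. Wdfy4 was higher by 1.16 and 1.25 and Rab43 by 1.31 and 1.07, with Clec9a the third, fixed by the split. Cybb, the NADPH oxidase subunit, was lower, with log2 ratios of -3.35 and -2.52, and so was Syk, the kinase downstream of Clec9a, with -1.34 and -1.40. Wdfy4 was not absent from the other subset, where it stood at 559 and 565 CPM, against 76.2 and 69.5 CPM in macrophages. None of 22 MHC class I genes passed 2-fold in both libraries, and of 13 MHC class II genes H2-Oa, at -1.42 and -1.74, and Ctss, the protease that trims the invariant chain, at -1.15 and -1.24, were lower.

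Other genes, named after their values were seen, were higher in cells with neither transcript. Il1r2, the decoy receptor for interleukin-1 (ENSMUSG00000026073, chr1, 40074079 to 40125231), was at 3012 CPM in them against 636 CPM in the others in the Lmo7+/+ library, and at 2216 against 697 CPM in the library labelled Lmo7-/-. Ifitm1, an interferon-inducible membrane protein (ENSMUSG00000025491, chr7, 140967221 to 140969825), was at 2356 against 276 CPM and 3097 against 896 CPM. Il1b, the inflammatory cytokine, was at 3019 against 827 CPM and 2554 against 890 CPM. Itgam, the alpha chain of CD11b, was at 133 against 17.8 CPM and 77.0 against 5.67 CPM.

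Further genes lower in cells with a Xcr1 or Clec9a transcript fell into several roles. Of all 3083 genes counted 5.25% were at least 2-fold lower and 2.79% higher in both libraries. Of chemokine and trafficking receptors 4 of 7 were lower (Ccr1, Cxcr4, Gpr183 and Ffar2), with Ffar2 at log2 ratios of -3.12 and -3.37. The 1 that was higher, Xcr1, was fixed by the split. Of 9 uptake receptors 6 were lower and Cd36, a scavenger receptor, was higher. Cdh1 was lower by 2.94 in the Lmo7+/+ library and by 3.38 in the library labelled Lmo7-/-, Ptgs2, which makes prostaglandins, had log2 ratios of -3.13 and -2.49, and Mgl2, a lectin of type 2 dendritic cells and macrophages, -1.65 and -1.85. Type I interferon-induced genes were lower for 4 of 12, among them Isg15 at -1.16 and -1.55 and Oasl2 at -1.88 and -3.38.

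**Figure D3:**
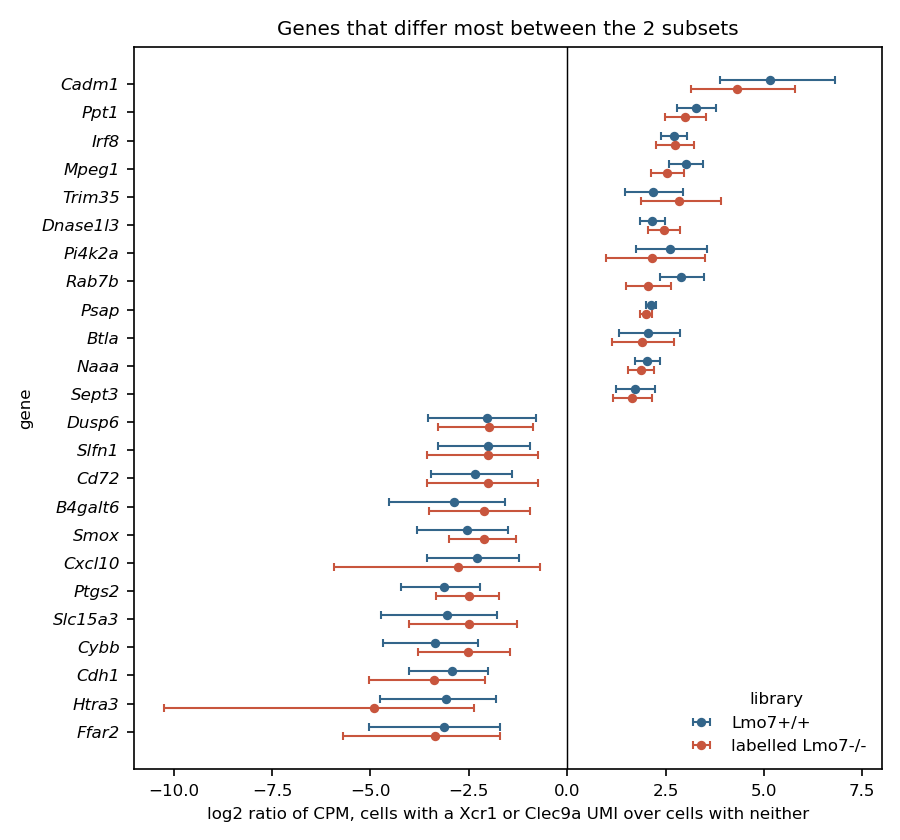
Log2 ratio of CPM in gated cells with a Xcr1 or Clec9a transcript over those with neither (horizontal axis) for the 12 highest and 12 lowest genes, with a point for each library. Cadm1, Ppt1 and Irf8 lead on one side and Ffar2, Htra3 and Cdh1 on the other. Genes were ranked by the less extreme ratio of the libraries, so that the shared side of 0 was set by their choice.

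Cell by cell the subsets differed in their medians and overlapped in part. The summed UMIs of Irf8, Cadm1, Ppt1, Rab7b, Naaa, Gcsam and Btla per 10000 UMIs of a cell had medians of 47.1 and 60.7 in cells with a Xcr1 or Clec9a transcript, and of 6.21 and 8.67 in cells with neither. The sum of Ifitm1, Il1r2, Mgl2, Cdh1, Klf4, Cd7 and Epcam per 10000 had medians of 4.56 and 3.80 against 69.7 and 64.5. At a level of 20 or more of the former sum were 60 of 73 and 13 of 164 cells, and 4 and 23 cells lay between 15 and 25. Of the 73 cells 13 lay below 20, and in 16 of the 73 the latter sum was above the former, so that a Xcr1 or Clec9a UMI did not always go with high levels of the other type 1 genes. The 13 of 164 cells show that a missing Xcr1 or Clec9a UMI did not always go with low levels of the other type 1 genes. The genes were picked from the same cells, so that this is no independent check of the split.

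**Figure D4:**
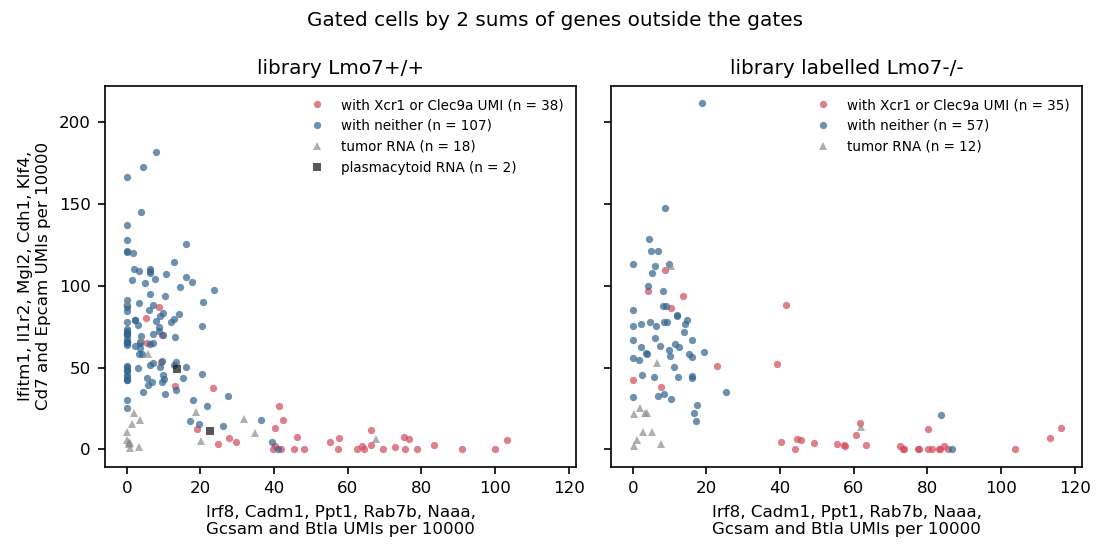
Each point is 1 gated cell, with UMIs per 10000 of 7 type 1 dendritic cell genes on the horizontal axis and of 7 genes of the other subset on the vertical axis, in a panel for each library. In 57 of 73 cells with a Xcr1 or Clec9a transcript the horizontal value was the higher, and in 155 of 164 cells with neither the vertical value was.

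Between the genotypes most genes of the gated cells differed little. Of 7169 genes with at least 20 counts, 137 (1.91%) were at least 2-fold higher and 232 (3.24%) at least 2-fold lower in the library labelled Lmo7-/-, and the median log2 ratio was -0.0368. Among 2413 genes with at least 100 counts 6 (0.249%) were higher and 6 (0.249%) lower by that fold. The gate genes Plet1, at 1704 and 1828 CPM (log2 ratio 0.10, -0.02 to 0.22), and Itgae, at 332 and 386 CPM (0.22, -0.04 to 0.47), had intervals that held 0. So did Flt3, also a gate gene, at 101.5 and 92.0 CPM (-0.14, -0.66 to 0.37). Its levels went from 160 to 238 CPM in cells with a Xcr1 or Clec9a transcript and from 87.1 to 34.2 CPM in those with neither. These subset levels rest on few counts, since 3 counts give 12.8 CPM in cells with neither transcript of the library labelled Lmo7-/-.

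No type 1 marker passed 2-fold between the libraries. The median log2 ratio was 0.446 over 19 genes, against -0.0368 over all genes, with 0 of 19 past 2-fold in either direction. When cells carrying tumor RNA were left out it was 0.572 with 2 higher, where 2.09% of all genes were. The list holds the gate genes Itgae, Flt3 and Clec9a, so that the median draws in part on genes that chose the cells. Of the 21 markers on the list, 19 had at least 20 counts. Naaa stood at 479 and 757 CPM (0.66, 0.46 to 0.86), Sept3 at 195 and 306 CPM (0.65, 0.34 to 0.97) and Btla at 92.2 and 138 CPM (0.58, 0.11 to 1.05). Clec9a, a gate gene, was at 70.3 and 106 CPM (0.59, 0.06 to 1.13). The share of gated cells with a Xcr1 or Clec9a transcript was 26.1% and 36.5%, a gap whose interval (-0.747 to 21.8 points) held 0. Within the subset with such a transcript the median was 0.344 over 18 genes. Itgae, Flt3, Clec9a and Xcr1, which set the gate or the split, were among these. Irf8, at -0.09, and Cd24a, at 235 and 212 CPM (-0.15), were below 0. Of genes higher in the other subset, several had ratios below 0, with Klf4 from 480 to 333 CPM (-0.53), Cdh1 from 196 to 141.5 CPM (-0.47), Il1r2 from 1670 to 1343 CPM (-0.31, -0.44 to -0.19) and the receptor gene Cd7 from 87.6 to 35.4 CPM (-1.31, -2.10 to -0.58). Ifitm1, from 1287 to 1806 CPM (0.49), and Mgl2, from 295 to 472 CPM (0.68, 0.43 to 0.93), were above 0. Of the type 2 marker list, Cd7 alone of 5 passed 2-fold, where 3.24% of all genes were lower, and the median was -0.704. In cells with neither transcript 0 of 5 type 2 markers passed 2-fold between the libraries.

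Among genes with at least 100 counts the highest ratio was that of Cxcl2, a neutrophil-attracting chemokine (ENSMUSG00000058427, chr5, 90903871 to 90905938). It stood at 54.2 CPM in the Lmo7+/+ library and 173 CPM in the library labelled Lmo7-/-, a log2 ratio of 1.68 (1.16 to 2.21). The ratio was 2.07 without cells that carried tumor RNA, 1.35 in cells with and 2.33 in cells without a Xcr1 or Clec9a transcript, and -0.24 in macrophages. Lyz2, the myeloid lysozyme (ENSMUSG00000069516, chr10, 117277331 to 117282321), stood at 72.6 and 230 CPM (1.66, 1.22 to 2.12). In macrophages Lyz2 was at 2292 and 3727 CPM, a log2 ratio of 0.70, and the part of free macrophage RNA in the gated cells was not tested. Cd36 followed at 65.7 and 152 CPM (1.21, with 0.74 in macrophages) and Serpinb6b, a protease inhibitor, at 64.6 and 149 CPM (1.20).

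Several of the most extreme genes rested on few cells. Tcim, at 0.92, had 93.6% and 93.1% of its counts in cells with tumor RNA. Mmp12, a macrophage elastase, was at 1.03 over all gated cells, at 1.54 in cells with neither transcript and at -0.97 in cells with one. At the low end Hmox1, heme oxygenase, was at -1.40, and 77 of its 97 counts in the Lmo7+/+ library came from 1 cell. Ecm1 (-1.10), Timp2 (-1.03) and Col6a2 (-0.90) had at least 92.0% of their counts in cells with tumor RNA in each library. Col6a2 is on the list that set those cells apart. Ap1s2, an adaptor of vesicle coats, from 94.5 to 42.5 CPM (-1.15, -1.88 to -0.48), and Pgf, placental growth factor, from 142 to 67.2 CPM (-1.08), were lower also without those cells, at -1.34 and -1.14. Pgf was at -0.80 in macrophages. Without the cells carrying tumor RNA, 147 and 92 cells remained, and 121 (2.09%) and 224 (3.86%) of 5796 genes passed 2-fold higher and lower.

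**Figure D5:**
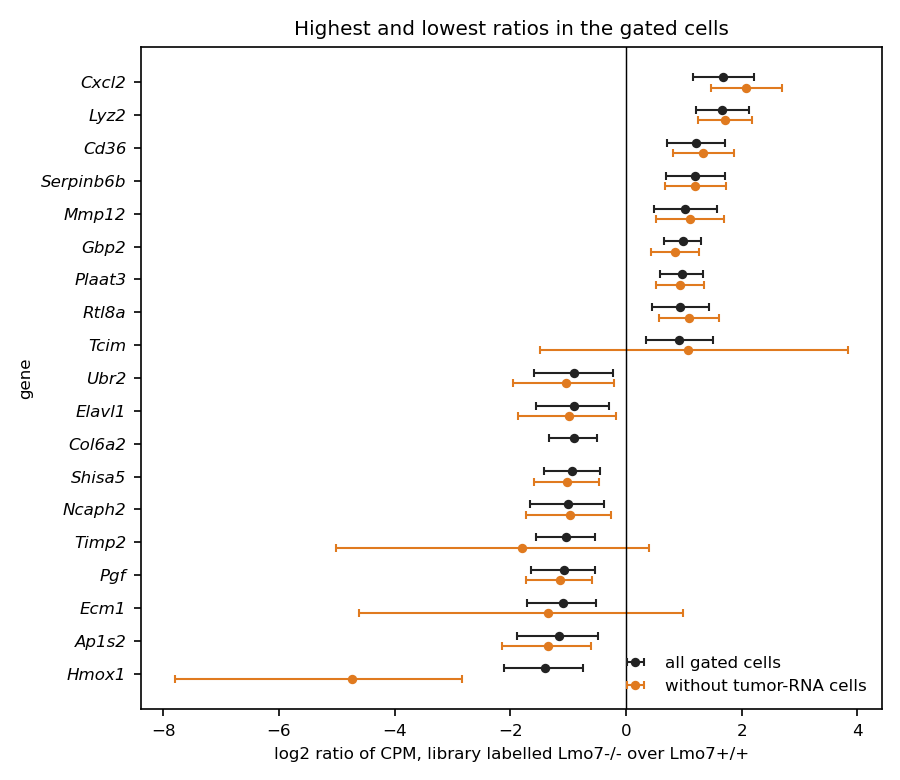
Log2 ratio of CPM in the library labelled Lmo7-/- over the Lmo7+/+ library (horizontal axis), with 95% counting intervals, for 9 of the 10 highest and the 10 lowest genes with at least 100 counts, over all gated cells and without those carrying tumor RNA. Cxcl2 stood at 1.68 and 2.07, and Col6a2 has no value without those cells.

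Among cytokines and chemokines, 15 of 31 listed genes had at least 20 counts. Of these 4 were at least 2-fold higher, where 1.91% of all genes were, and 0 lower, with a median log2 ratio of 0.726. Cxcl2, described above, was among them. Il12b, a subunit of interleukin-12, had 3 and 27 counts in 2 and 3 cells, 17 of them in 1 cell. Ccl22 had 25 of 37 counts in 1 cell of the library labelled Lmo7-/-. Ccl2 had 96.8% and 97.7% of its counts in cells with tumor RNA. Cxcl9, which attracts activated T cells, was at 232 and 419 CPM (0.86), at 0.22 without cells with tumor RNA, and 1.07 in macrophages. Cxcl10 changed its direction, from 0.88 over all gated cells to -1.34 without cells carrying tumor RNA, which held 86.8% of its counts in the library labelled Lmo7-/-. Without those cells the list had 3 of 12 higher, 1 lower and a median of 0.301. There 2.09% of all genes were higher and 3.86% lower.

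Some genes induced by interferon passed 2-fold over all gated cells, where 1.91% of all genes were higher and 3.24% lower. Of 20 interferon gamma-induced genes, 2 were at least 2-fold higher and 0 lower (median 0.300). These were Igtp, at 1.27, and Tgtp1, at 1.79 on 8 and 18 counts, of the GTPases that guard against intracellular microbes. Reads of Tgtp1 can be shared with its near-identical copy Tgtp2, which had 22 and 13 counts (-0.14), and the copies together had 30 and 31 counts, a log2 ratio of 0.67 (-0.11 to 1.44), under 2-fold. Without cells carrying tumor RNA the copies had 20 and 17 counts (0.42, -0.60 to 1.43). Tgtp1 was at 1.77 in macrophages. Without the cells carrying tumor RNA Igtp was at 0.52. There 3 of 18 genes, Gbp3, Iigp1 and Tgtp1, were higher, where 2.09% of all genes were. Within the subsets 0 of 11 of these genes were higher and 1 lower in cells with a Xcr1 or Clec9a transcript, and 2 of 16 higher and 0 lower in cells with neither. Of all genes 2.64% and 2.48% were higher in these subsets. Of 22 type I interferon-induced genes Ifit2, with 26 and 6 counts (-1.498), was the 1 past 2-fold, and it was lower. Without the cells carrying tumor RNA 7 of 22 genes were lower and 0 higher (median -0.387), where 3.86% of all genes were lower. Within the subsets 2 of 8 were lower in cells with a Xcr1 or Clec9a transcript and 5 of 21 in cells with neither, with 0 higher in each. Of all genes 5.02% and 4.35% were lower in these subsets. The difference between the lists was not tested. Among them Rsad2, which encodes the antiviral protein viperin, had 44 and 5 counts (-2.48, -4.17 to -1.15), whereas it stood at 0.35 over all gated cells, where 87.2% of its counts in the library labelled Lmo7-/- lay in cells with tumor RNA and 32 of 39 counts in 1 cell.

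Genes of antigen presentation on MHC class I differed by little, with 1 of 22 at least 2-fold higher (median 0.100), where 1.91% of all genes were. That gene was Tapbpl, a peptide editor, at 1.00 (0.37 to 1.65). Tap1, which carries peptides into the endoplasmic reticulum, was at 242 and 361 CPM (0.58, 0.29 to 0.86), Psme2, a proteasome activator subunit, at 0.55 and Psmb10, an immunoproteasome subunit, at 0.50. The light chain B2m was at 0.13, and the class I heavy chains H2-K1 and H2-D1, whose reads may be shared with related class I genes, were at 0.10 and -0.01. None of 13 MHC class II genes passed 2-fold (median -0.0296), with H2-Aa at 12647.5 and 13307 CPM (0.07) and the invariant chain Cd74 at 0.19.

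The other lists moved little as groups. Over all genes 1.91% were at least 2-fold higher and 3.24% at least 2-fold lower. Of 16 costimulatory genes 1 passed 2-fold (median 0.0648), the ICOS ligand Icosl, from 80.7 to 38.9 CPM (-1.05, -1.81 to -0.34). Cd80 was at 0.03, Cd86 at 0.29 and Cd40 at -0.17, and Cd274, the PD-1 ligand, was at 0.76 with 1.04 in macrophages. Of 14 uptake receptors 2 were higher, Cd36 and the Fc receptor Fcgr4, at 1.12 with 1.18 in macrophages. No gene passed 2-fold among 15 transcription factors (median -0.0869), 11 growth factor receptors (-0.141), 14 cross-presentation genes (-0.266), 13 pattern recognition receptors (0.00892), 8 chemokine and trafficking receptors (-0.0435), 16 adhesion genes (-0.0504), 27 proliferation genes (-0.1005), 15 hypoxia and glycolysis genes (0.105) and 19 stress genes (-0.153). Among cells with a Xcr1 or Clec9a transcript, where 81 (2.64%) and 154 (5.02%) of 3069 genes passed 2-fold higher and lower, 7 of 23 proliferation genes were lower (median -0.547). Top2a, a topoisomerase of dividing cells, was at 458 and 164 CPM there, and its transcript was found in 34.2% and 22.9% of these cells. After thinning to 1500 UMIs it was found in 4 of 38 and 5 of 35. In cells with neither transcript 107 (2.48%) and 188 (4.35%) of 4323 genes passed 2-fold higher and lower.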

How the data were processed

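The deposited files held raw UMI counts per gene and droplet, 1 matrix per genotype, which the authors made with Cell Ranger (version 2.1.1 on mm10 per the submitters' processing notes, whereas the matrix header names software version 3.0.0). Droplets were kept from 500 genes and 1000 UMIs upward where mitochondrial transcripts took no more than 15%, which left 13542 of 16208 and 11860 of 15163, with 94751498 and 76262235 UMIs. The authors' cell annotation was not used here, and cells were gated on raw counts. Compared groups were Ccr7 cells (at least 2 Ccr7 and at least 2 Fscn1 plus Ccl22 UMIs, 35 and 32 cells), C1q macrophages (at least 10 C1q UMIs, 4085 and 4631), monocytes (at least 3 Ly6c2 plus Chil3 UMIs, 227 and 172) and T cells (at least 3 Cd3 UMIs, 376 and 563). A gate for tumor cells held 4 and 0 cells and was not used.

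For each group and library the counts of its cells were added up and scaled by their total to CPM. Log2 ratios are the library labelled Lmo7-/- over the Lmo7+/+ library, with exact binomial 95% intervals where the libraries together gave a gene 20 counts or more. With 1 library per genotype no test was run and a gene was counted as higher or lower past a 2-fold ratio. Shares carry exact Clopper-Pearson intervals, and a count of 0 allows up to 3 counts of the total. UMIs are molecules of 1 library, so that all intervals cover counting error only. Doublets were marked by Scrublet and kept in the main values. Genes were named when they belonged to the gate, the marker sets or the gene lists, were among the 10 highest or lowest ratios with at least 100 counts (mitochondrial and ribosomal genes left out), or among the 20 genes most above the compared groups. Genes named for the difference between subsets, and the subsets themselves, were chosen after values were seen, and all members and lists were chosen with earlier results of these data known. Positions are from GENCODE M21 on GRCm38, which held 32158 of 32285 gene identifiers. Alternatives were other cell filters, gate thresholds, C1q limits, denominators, count minimums, thinning to 1500 UMIs, per-cell means and edgeR's TMM scaling. The steps were tested on simulated data. A gene among the 10 highest ratios is not reported here. Analyses used Python 3.11.15, numpy 2.4.6, scipy 1.17.1, pandas 2.3.3, scanpy 1.11.5, matplotlib 3.10.9, R 4.3.3 and edgeR 4.0.16.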

Additional observations from a re-analysis of the deposited data

Results flagged for a closer look

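Among droplets removed by the cell filter, those that met the gates numbered 8 of 2666 (Lmo7+/+) and 2 of 3303 (the library labelled Lmo7-/-). They drew attention because they lie outside the kept cells that every comparison used, and there was no control sample to set them against.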

How the results depend on the processing

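No paired analysis was possible because each genotype had 1 library. The share of gated cells fell by 0.342 points in the library labelled Lmo7-/- as reported. The difference was -0.0766 with C1q transcripts at 0, -1.49 with gated leukocytes as the denominator, and reversed to 0.0145 for cells with a Xcr1 or Clec9a transcript alone, a setting added after the data were seen. Counts of genes 2-fold higher and lower were 357 and 507 at a minimum of 10 counts, 30 and 35 at 50 counts, 84 and 127 in thinned cells, 287 and 355 with per-cell means, and 81 and 154 in cells with a Xcr1 or Clec9a transcript.

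Xcr1 stood at 118 and 186 CPM with a gate sum of 2, at 212 and 344 without cells carrying tumor RNA, at 609 and 799 in cells with a Xcr1 or Clec9a transcript and at 0 and 0, by construction, in those with neither. Irf8 stood at 392 and 417 CPM with a gate sum of 2, at 597 in the Lmo7+/+ library with a gate sum of 5, at 582 in the library labelled Lmo7-/- without Scrublet doublets, at 692 and 658 without cells carrying tumor RNA, at 1499 and 1275 with a Xcr1 or Clec9a transcript and at 230 and 193 with neither. Hmox1 reversed to 0.017 with a gate sum of 2 and to 0.60 with C1q transcripts at 0, and Mmp12 to -0.97 in cells with a Xcr1 or Clec9a transcript. The median log2 ratio over all genes stayed between -0.0658 and -0.0128. The cause of these changes was not tested, other than the number of genes or cells that each setting leaves. Depth limited genes with few counts, among them Lmo7, Il12b and Ifit2.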
